A study of Mus musculus with 6 samples.

Results

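The glucocorticoid receptor gene Nr3c1 and 8 genes that respond to the receptor or carry its hormone (Tat, Tsc22d3, Fkbp5, Sgk1, Dusp1, Klf9, Zbtb16 and Serpina6) were followed in mouse liver by their symbols, 9 genes of 55335 in the deposited FPKM table. FPKM counts fragments per kilobase of a gene, relative to how many fragments its library holds. All 9 passed the filter on low values (FPKM 1 or more in 3 or more libraries of the 6) and so were among the 9908 genes tested. Livers came from wild-type C57BL/6 mice given 20 mg per kg of cadmium chloride by gavage every day for 90 days, or 0 mg per kg in the control group, 3 libraries per group. The mice were 6 to 8 weeks old by the housing description, and nothing in the labels ties a library to 1 or to several of the 6 mice of a group, so p-values measure the spread between libraries. Replicate numbers 1 to 3 are also batch numbers in the labels, so a batch pairs 1 control library with 1 cadmium library. The RNA is the input fraction of an N6-methyladenosine pull-down, described in the labels as the fragments the antibody did not bind. A level here is therefore a level in that fraction.

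Corticosterone, the glucocorticoid of mice, circulates bound to a carrier globulin, enters cells and binds the glucocorticoid receptor, which waits in the cytosol on HSP90 and its co-chaperones. The bound receptor moves to the nucleus and activates genes near palindromic DNA elements, among them genes for amino acid breakdown, glucose production and dampening of inflammation in liver. Several of its targets, FKBP5 and GILZ (the product of Tsc22d3) among them, feed back on the receptor or on the inflammatory factors it opposes, and hormone release follows the daily rhythm.

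Recovered read totals ran from 42115960 to 68587128 per library, and 470 to 74115 reads per library stood behind each of the 9 genes. Control replicate 1 and cadmium replicate 2 had 0.265% and 0.277% of reads from mitochondrial rRNA, against 0.782% to 1.18% in the others. The labels give male mice, but all 6 libraries held 19.7 to 35.5 FPKM of Xist, which is made from an inactive X chromosome, and the Y-linked Ddx3y and Eif2s3y were listed at 0. Of the hepatocyte markers, Fgb was called higher (log2 fold change 0.68, limma adjusted p = 0.0459, and 0.11 with the batch number as a block). The other tested markers, Alb, Ttr, Apoa1, Apob, Serpina1a and Serpina1c, were not called different. Cyp11a1 and Cyp11b1, steroid-making enzymes of the adrenal cortex, were listed at 0 in all 6 libraries.

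Tat and Tsc22d3 fell in cadmium to well under their control levels, Dusp1 and Fkbp5 were lower in every cadmium library than in any control library without passing the test, and the receptor gene itself differed little. Klf9 lay on the other side, higher in every cadmium library. In limma on log2(FPKM + 1), adjusted by the Benjamini-Hochberg method over all tested genes with a threshold of 0.05, 2 of the 9 genes were called lower and 0 higher. Over all tested genes 1.82% were called lower and 7.86% higher. Groups that did not overlap in FPKM were found for 4 of the 9 in the lower direction, against 7.24% of all tested genes, and for 1 in the higher direction, against 26.4%. An unadjusted p under 0.05 was reached by 5 of the 9 and by 27% of all tested genes. The median log2 fold change of the 9 was -0.51, and that of all tested genes 0.09. With the batch number as a block, 0 of the 9 were called, against 0.646% of all genes lower and 1.86% higher.

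**Figure D1:**
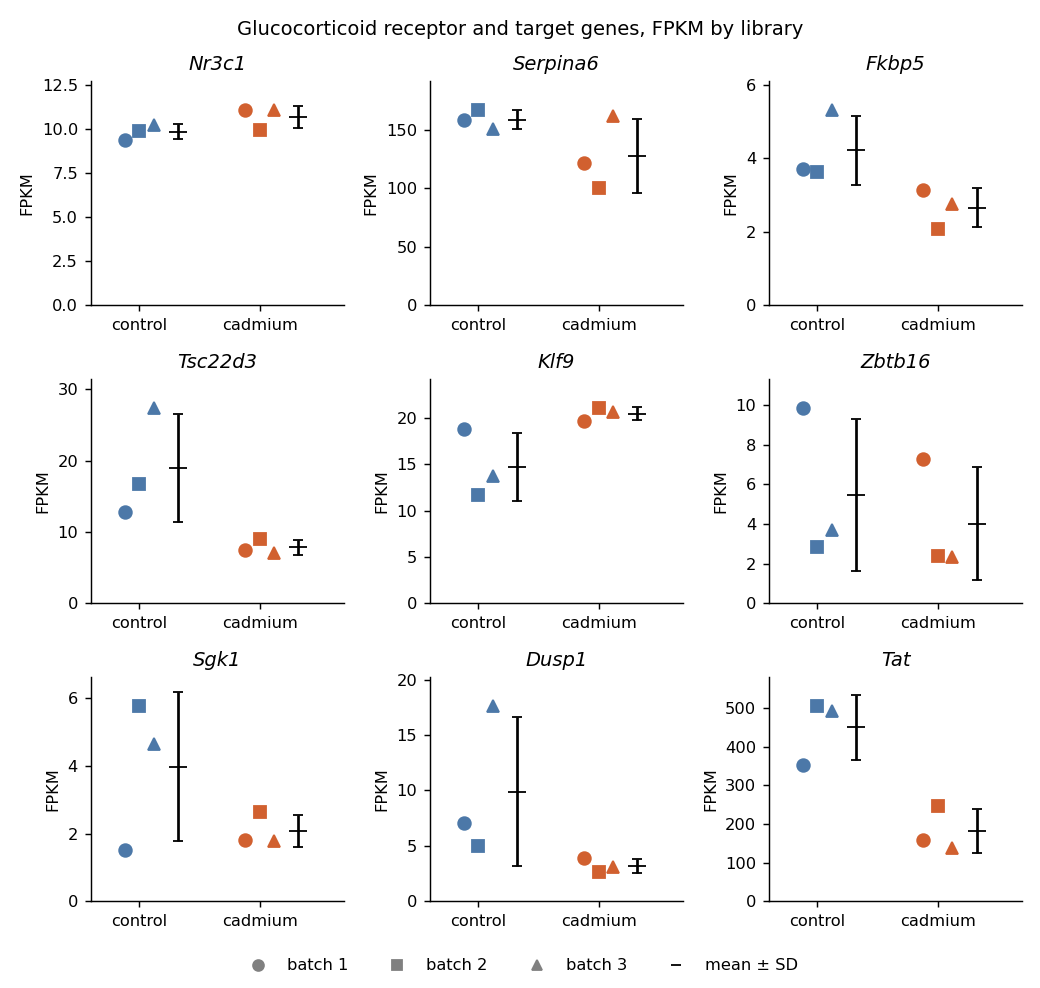
FPKM (linear axes from 0) of the 9 genes in 3 control and 3 cadmium libraries. Each point is 1 library, its shape gives the batch, and bars are the mean and SD of a group. The cadmium points of Tat, Tsc22d3, Dusp1 and Fkbp5 lie below all control points, and those of Klf9 above.

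The receptor reads palindromic elements at the genes it induces. Promoter windows came from the RefSeq table (GRCm38.p6, from 250 bases before to 50 after each start). No window of Nr3c1, Zbtb16 or Serpina6 was searched. For the other 6 of the 9 genes, Tat, Tsc22d3, Fkbp5, Sgk1, Dusp1 and Klf9, 13 windows in all were searched. The stretches below were chosen because they hold the motif letters found in these windows, and that of Tat, the gene with the smallest p, because none of the letters were found. Capitals mark the full palindromic glucocorticoid element in Sgk1: the arm AGAACA, 3 free bases, then the arm's reverse complement TGTTCT. They also mark the cAMP response element TGACGTCA and then the E-box CACGTG in Dusp1, and the E-box in Fkbp5. In Tsc22d3 they mark the single arm AGAACA of the element, here read on the other strand. The Sgk1 stretch also holds an E-box, from -246, and a further single arm, from -242, both left in small letters.
Sgk1 chr10:21993640-21993889, plus strand: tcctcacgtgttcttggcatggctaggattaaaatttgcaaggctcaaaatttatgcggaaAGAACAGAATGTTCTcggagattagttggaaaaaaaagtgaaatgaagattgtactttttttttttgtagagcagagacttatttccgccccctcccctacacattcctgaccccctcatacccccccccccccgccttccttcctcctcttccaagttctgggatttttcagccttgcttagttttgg
Dusp1 chr17:26508573-26508632, minus strand: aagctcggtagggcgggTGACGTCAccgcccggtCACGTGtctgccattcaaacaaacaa
Fkbp5 chr17:28486290-28486349, minus strand: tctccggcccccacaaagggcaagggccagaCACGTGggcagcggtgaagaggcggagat
Tsc22d3 chrX:140600673-140600732, minus strand: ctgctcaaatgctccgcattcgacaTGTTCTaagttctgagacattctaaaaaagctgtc
Tat chr8:109990376-109990435, plus strand: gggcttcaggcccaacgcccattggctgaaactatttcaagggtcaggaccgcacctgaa
Both strands were searched, and a full element also counts as a loose core (the arm GNACA, 3 free bases, then its reverse complement TGTNC) and as 2 single arms. The full element was found in 3 of 32851 windows (0.00913%), those of Sgk1, Acnat2 and Gm35041, and in Sgk1 it begins at position -189 from one of its 6 listed starts. The loose core was found in 0.475% of all windows and in 1 of the 13 windows here, the same window of Sgk1. The single arm stood in 4 of the 13 windows and in 19% of all, the E-box in 3 of the 13 and in 7.15% of all, and the cAMP response element in 1 of the 13 and in 1.79% of all. Windows are not separate genes: 6 of the 13 belong to Sgk1, and the single arm was found only in windows of Sgk1 and Tsc22d3. A match is a match of letters only, and receptor binding outside these windows was not analysed here.

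The receptor and the carrier of its ligand come before its targets. Nr3c1 (ENSMUSG00000024431, mm10 chromosome 18, 39410545 to 39519421) stood at 9.40, 9.86 and 10.2 FPKM in controls and at 11.1, 9.93 and 11.1 FPKM in cadmium replicates 1 to 3. The groups overlapped, since cadmium replicate 2 lay below control replicate 3. Its means were 9.83 ± 0.42 and 10.7 ± 0.647 FPKM (SD, n = 3), and the log2 fold change was 0.11 (95% interval -0.11 to 0.32, adjusted p = 0.499). In the deposited log2 values, which are scaled by a size factor per library, the difference had the other sign at -0.06 (adjusted p = 0.764). Serpina6, the corticosteroid-binding globulin that hepatocytes secrete to carry corticosterone in blood (chromosome 12, 103646630 to 103657212), stood at 159, 167 and 151 FPKM in controls and at 121, 100.05 and 162 FPKM in cadmium. In FPKM cadmium replicate 3 fell inside the control range, and the other cadmium libraries lay below it. The log2 fold change was -0.34 (95% interval -0.79 to 0.11, adjusted p = 0.306), with -0.18 without cadmium replicate 2 and -0.52 without cadmium replicate 3. In the authors' deposited table Serpina6 had a log2 fold change of -0.52 and an FDR of 0.0606. In the deposited log2 values every cadmium library lay below every control, replicate 3 narrowly, at 14.11 against 14.13 in control replicate 3. Limma on those values gave an adjusted p of 0.107.

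Fkbp5 encodes FKBP51, a co-chaperone that the receptor induces and that lowers the receptor's affinity for hormone. Fkbp5 (ENSMUSG00000024222, chromosome 17, 28399094 to 28517527) stood at 3.72, 3.64 and 5.31 FPKM in controls and at 3.14, 2.09 and 2.76 FPKM in cadmium. All 3 cadmium libraries lay below all controls, with control replicate 3 the highest. The means were 4.22 ± 0.944 and 2.66 ± 0.528 FPKM, and the log2 fold change was -0.51 (SE 0.16, 95% interval -0.87 to -0.14, adjusted p = 0.087, limma). The call was made on the deposited log2 values (log2 fold change -0.84, adjusted p = 0.0234) and with voom on recovered reads (adjusted p = 0.0232). AC154912.1, an antisense gene within its span at 1.84 and 1.39 mean FPKM, could share reads with it, since use of strand in counting is not given in the sources used here.

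Tsc22d3 encodes GILZ, the glucocorticoid-induced leucine zipper protein that restrains NF-kB and AP-1. Tsc22d3 (ENSMUSG00000031431, chromosome X, 140539528 to 140600659) stood at 12.8, 16.7 and 27.3 FPKM in controls and at 7.51, 8.97 and 7.01 FPKM in cadmium. The groups did not overlap, the controls spread widely with replicate 3 at the top, and the cadmium libraries lay close together. The fall, from 18.9 ± 7.52 to 7.83 ± 1.02 FPKM (SD, n = 3), left 0.414 of the control mean. On the log2 scale it was -1.12 (SE 0.26, limma adjusted p = 0.0444). The adjusted p was 0.0908 with the batch block. The call was lost without control replicate 2 (adjusted p = 0.0976) and without cadmium replicates 1, 2 or 3 (0.127, 0.0854 and 0.151).

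Klf9, a Krüppel-like transcription factor that both glucocorticoid and the clock control, ran against the other targets. Klf9 (ENSMUSG00000033863, chromosome 19, 23141226 to 23168134) stood at 18.8, 11.7 and 13.7 FPKM in controls and at 19.7, 21.1 and 20.6 FPKM in cadmium. Control replicate 1 came close to the cadmium libraries, and the other controls lay well below. The log2 fold change was 0.47 (SE 0.17, 95% interval 0.08 to 0.86, adjusted p = 0.122). Without control replicate 1 it was 0.65 (adjusted p = 0.0262). In the deposited log2 values the groups overlapped and the log2 fold change was 0.32 (adjusted p = 0.325).

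Zbtb16 encodes PLZF, a zinc finger repressor strongly induced by glucocorticoid in many cells. Zbtb16 (ENSMUSG00000066687, chromosome 9, 48654297 to 48836222) stood at 9.84, 2.83 and 3.72 FPKM in control replicates 1 to 3 and at 7.30, 2.41 and 2.32 FPKM in cadmium replicates 1 to 3. Both libraries of batch 1 were high and the other 4 low, so the spread within a group was larger than the gap between groups (log2 fold change -0.35, SE 0.54, adjusted p = 0.731). Within each of the 3 batches the cadmium library was the lower, by -0.39, -0.17 and -0.51 on log2(FPKM + 1), and with the block the adjusted p was 0.12. Without control replicate 1 the log2 fold change was 0.10 (adjusted p = 0.914), so its direction between groups rests on that library.

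The signalling enzymes were Sgk1 and Dusp1. Sgk1, a kinase that promotes ion channel and transporter activity, carried the full element printed above. Sgk1 (ENSMUSG00000019970, chromosome 10, 21882184 to 21999903) stood at 1.51, 5.76 and 4.64 FPKM in controls and at 1.82, 2.63 and 1.78 FPKM in cadmium. Control replicate 1 was the lowest of all 6 libraries, and the other controls were the highest. The log2 fold change was -0.58 (SE 0.39, 95% interval -1.55 to 0.38, adjusted p = 0.399), with -1.02 without control replicate 1 (adjusted p = 0.0191) and -0.30 without control replicate 2 (adjusted p = 0.643). Dusp1 encodes a phosphatase that switches off the p38 and JNK kinases. Dusp1 (ENSMUSG00000024190, chromosome 17, 26505590 to 26562128) stood at 7.08, 5.01 and 17.6 FPKM in controls and at 3.90, 2.62 and 3.10 FPKM in cadmium. All cadmium libraries lay below all controls, and control replicate 3 exceeded the sum of the other controls. Its ratio of means, 0.324, was the lowest of the 9 genes, and its log2 fold change was -1.21 (SE 0.43, adjusted p = 0.144). Without control replicate 3 the log2 fold change was -0.74 (adjusted p = 0.0775). In the authors' deposited table its FDR was 0.0267. Gm8225, a pseudogene on the other strand within the Dusp1 span (5.06 and 4.76 mean FPKM in control and cadmium), could share reads with Dusp1. So could Ergic1, which overlaps the span on the other strand (4.05 and 4.84), since use of strand in counting is not given in the sources used here.

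Tat, tyrosine aminotransferase, starts the breakdown of tyrosine in hepatocytes and is the classic liver gene induced by glucocorticoid. Tat (ENSMUSG00000001670, chromosome 8, 109990437 to 109999803) stood at 353, 505 and 492 FPKM in controls and at 159, 247 and 139 FPKM in cadmium. The highest cadmium library, replicate 2, lay below the lowest control, replicate 1, which are the same libraries that had little mitochondrial rRNA. The ratio of means was 0.404 and the log2 fold change -1.33 (SE 0.26, 95% interval -1.93 to -0.73, adjusted p = 0.0244). A limma fit without those 2 libraries, chosen after seeing the data, gave Tat a log2 fold change of -1.74 (adjusted p = 0.0108). In it 4 of the 9 genes were called (Tat, Tsc22d3 and Sgk1 lower, Klf9 higher). Leaving out the lowest control and the highest cadmium library of Tat had to widen its gap, so that fit gives its call no support. Control replicate 1 was also the lowest control of Tsc22d3 and Sgk1 and the highest of Klf9. With the block the adjusted p of Tat was 0.0533, and with no filter on low values those of Tat and Tsc22d3 were 0.115 and 0.159. The call was lost without control replicates 2 or 3 (0.0657 and 0.078) and without cadmium replicates 1 or 3 (0.0798 and 0.0973).

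**Figure D2:**
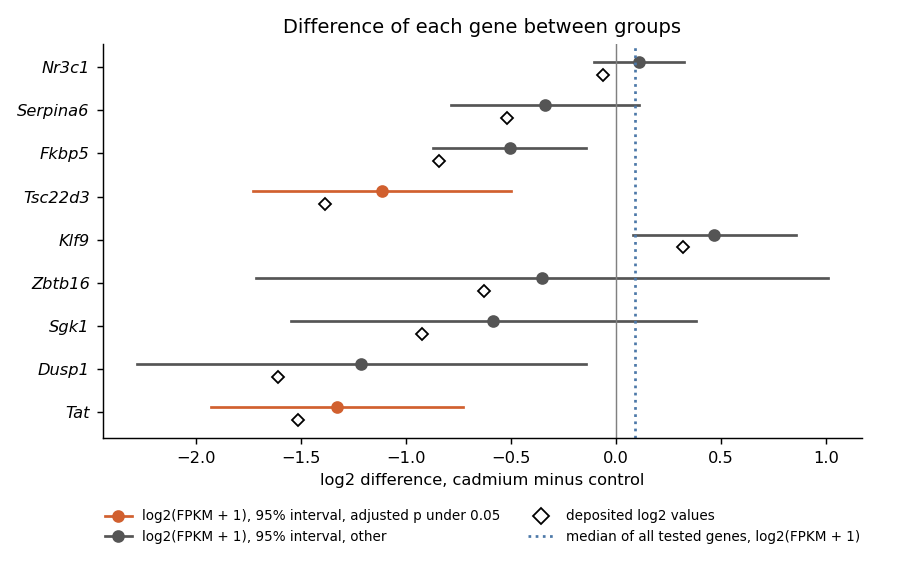
Log2 difference between cadmium and control for each gene. Circles with 95% intervals are limma estimates on log2(FPKM + 1), orange where the adjusted p was under 0.05, and diamonds are the same difference in the deposited log2 values. Tat and Tsc22d3 are orange at -1.33 and -1.12, and the 2 estimates for Nr3c1 fall on either side of 0.

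All diamonds lie to the left of their circles. The median of all tested genes was 0.09 in FPKM and -0.06 in the deposited log2 values, and the shift of single genes was wider, with Dusp1 at -1.21 and -1.61. With a pseudocount of 0.1 in place of 1, Dusp1 was at -1.41 in FPKM. The part of scaling and pseudocount in these shifts was not tested. Tat, Tsc22d3, Fkbp5, Dusp1, Sgk1, Zbtb16 and Serpina6 had negative differences in both tables. Limma on the deposited log2 values called 3 of the 9 lower (Tat, Tsc22d3 and Fkbp5) and 0 higher, against 4.98% and 3.85% of all genes. An FDR under 0.05 with a negative fold change was given in the authors' deposited table to 4 of the 9 genes, and to 3.15% of its rows: Tat (log2 fold change -1.51, FDR 2.58e-09), Tsc22d3 (-1.39, FDR 1.72e-09), Fkbp5 (-0.84, FDR 3.72e-05) and Dusp1 (-1.61). The test behind that FDR is not given in the sources used here.

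Within batches, each of which has 1 library per group, Tat differed by -1.14, -1.03 and -1.82 on log2(FPKM + 1) in batches 1, 2 and 3. Tsc22d3 differed by -0.70, -0.83 and -1.82, Dusp1 by -0.72, -0.73 and -2.18, and Fkbp5 by -0.19, -0.58 and -0.75. The difference of these 4 genes was negative in all 3 batches and widest in batch 3, whose control library had the highest Dusp1, Tsc22d3 and Fkbp5 of all. Klf9 was positive in all 3 batches, at 0.06, 0.79 and 0.55. Sgk1 differed by 0.17 in batch 1 and by -0.90 and -1.02 in batches 2 and 3, and Serpina6 by -0.38, -0.73 and 0.10.

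**Figure D3:**
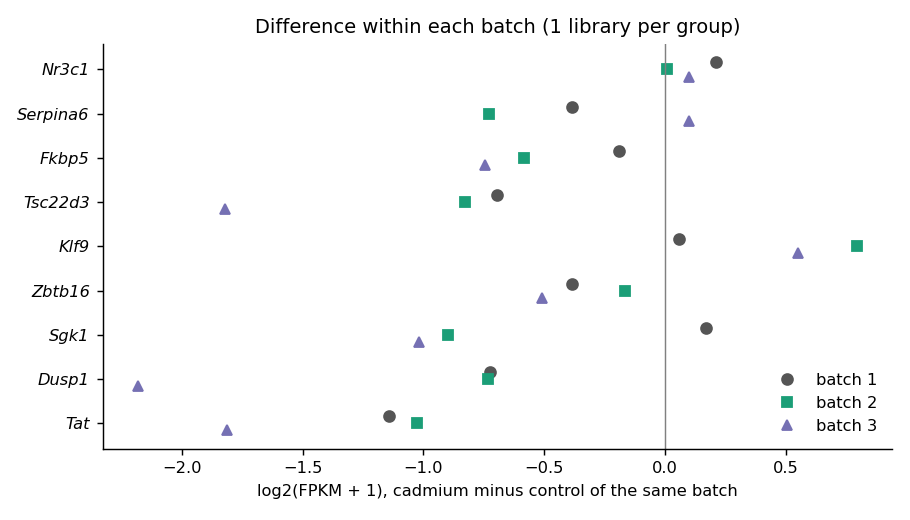
Cadmium minus control on log2(FPKM + 1) within each of 3 batches, 1 point per batch and gene. Tat, Tsc22d3, Dusp1, Fkbp5 and Zbtb16 lie left of 0 in all 3 batches, and Klf9 right of 0.

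The level of a gene per kilobase ranked Tat first in controls (449.7 ± 84.3 FPKM), then Serpina6 (159 ± 7.94), Tsc22d3 (18.9 ± 7.52), Klf9 (14.8 ± 3.67), Dusp1 (9.90 ± 6.75), Nr3c1 (9.83 ± 0.42), Zbtb16 (5.47 ± 3.82), Fkbp5 (4.22 ± 0.944) and Sgk1 (3.97 ± 2.20). From Tsc22d3 down, the 3 control values of each gene overlapped those of the next. In cadmium Klf9 stood at 20.4 ± 0.707 FPKM, above Tsc22d3 at 7.83 ± 1.02, and the libraries of these 2 genes did not overlap in that group.

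Other genes of the pathway were taken from lists of hormone supply, receptor chaperones, receptor cofactors and 3 lists of targets. The enzymes of hormone supply were not called. Hsd11b1, which regenerates active corticosterone inside hepatocytes, stood at 78.3 ± 6.71 and 71.6 ± 5.01 FPKM (log2 fold change -0.13, 95% interval -0.43 to 0.18, adjusted p = 0.578). H6pd, which supplies NADPH to that enzyme, stood at 51.9 ± 2.23 and 68.2 ± 10.4 FPKM without overlap (adjusted p = 0.139). Of 4 tested genes of hormone supply 0 were called, and Hsd11b2 and Cyp11b1 were below the filter.

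Of 8 receptor chaperones 2 were called lower and 0 higher, against 1.82% and 7.86% of all tested genes. For 6 of the 8 every cadmium library lay below every control in FPKM, against 7.24% of all tested genes. Their median log2 fold change was -0.49. Hspa8, which binds the receptor before it is handed to HSP90, stood at 92.2, 134 and 134 FPKM in controls and at 48.6, 72.8 and 61.5 FPKM in cadmium (log2 fold change -0.96, adjusted p = 0.0339). Its co-chaperone Dnaja1 fell from 13.6 ± 2.81 to 6.52 ± 0.90 FPKM (log2 fold change -0.94, adjusted p = 0.0177), and both calls held with the block. Both calls were lost without control replicate 3 (adjusted p = 0.102 and 0.0562), cadmium replicate 1 (0.0976 and 0.0634) or cadmium replicate 3 (0.115 and 0.0792), and that of Hspa8 also without control replicate 2 (0.0874). Hsp90aa1, the inducible HSP90, was at 19.1 ± 4.85 and 11.5 ± 1.98 FPKM (adjusted p = 0.0846), and Fkbp4, whose product FKBP52 competes with FKBP51 on the receptor, at 41.0 ± 5.57 and 29.7 ± 0.538 FPKM (adjusted p = 0.0748). The groups of both did not overlap, and both were called lower on the deposited log2 values. There 5 of the 8 chaperones were called lower, against 4.98% of all genes.

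Of 12 receptor cofactors and partners 1 was called lower and 0 higher, against 1.82% and 7.86% of all tested genes. Their median log2 fold change was 0.09, the same as that of all genes to 2 decimals. The gene called was Cebpb, a liver bZIP factor that binds beside the receptor at many targets including gluconeogenic genes. Cebpb stood at 81.8, 107 and 110 FPKM in controls and at 34.9, 46.9 and 40.0 FPKM in cadmium, with no overlap. The change was -1.27 on the log2 scale (SE 0.17, limma adjusted p = 0.00994), and the block gave 0.0378. The adjusted p was 0.0511 without cadmium replicate 3.

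In 3 further lists of genes that glucocorticoid induces (regulators, liver metabolism and macrophage genes), 30 of 35 listed genes were tested. Of these 5 were called lower and 0 higher, against 1.82% and 7.86% of all tested genes. With the block 2 were called, both lower, against 0.646% of all genes lower and 1.86% higher. These counts leave out the list of acute phase genes that glucocorticoid co-induces, which went the other way. Of its 9 tested genes 5 were called higher and 0 lower, so the direction of the count depends on the lists put together. Per1, a clock repressor with its own glucocorticoid element, stood at 4.54, 8.95 and 6.84 FPKM in controls and at 1.22, 2.20 and 2.40 FPKM in cadmium. Every cadmium library lay below every control (log2 fold change -1.39, SE 0.25), with an adjusted p of 0.0267, or 0.0301 under the block. Leaving out 1 library at a time, Per1 was called without control replicate 1 and missed without any of the other 5, where adjusted p reached 0.0812. Foxo1, a transcription factor of fasting metabolism, fell from a mean of 5.67 ± 0.232 FPKM to one of 4.00 ± 0.041 (adjusted p = 0.0216, block 0.0675). It was called without control replicate 1 or 2 and missed without any of the other 4 libraries (adjusted p up to 0.101). Zfp36 and Nfkbia, which restrain inflammatory signalling, and Ddit4 and Errfi1 were not called. On log2(FPKM + 1) Per1, Cebpd, Errfi1, Nfkbia, Foxo1 and Foxo3 of the regulator list were lower in cadmium in all 3 batches. Bcl6, Irs2 and Cdkn1a of the same list were higher in all 3, and Ddit4, Lpin1, Angptl4, Zfp36 and Hif3a went both ways.

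Of 15 tested liver metabolic targets 2 were called lower and 0 higher, against 1.82% and 7.86% of all genes, and 0 were called with the block. Groups did not overlap in FPKM for 5 in the lower direction, against 7.24%, and for 1 in the higher direction, against 26.4%. The median log2 fold change of the list was -0.35. Asl, which makes arginine in the urea cycle, stood at 85.9, 111 and 124 FPKM in controls and at 69.1, 68.5 and 64.7 FPKM in cadmium (adjusted p = 0.0489, and 0.102 with the block), and its call held only without control replicate 1 among the fits that left out 1 library. Pfkfb3, a regulator of glycolysis, fell from a mean of 1.54 ± 0.456 FPKM to one of 0.701 ± 0.109 (adjusted p = 0.0391, block 0.0875) and among those fits was called only without control replicate 2. Pck1, the committed enzyme of gluconeogenesis, was at 585 ± 99.3 and 292 ± 107 FPKM with no overlap (log2 fold change -1.06, 95% interval -1.74 to -0.37, adjusted p = 0.0657, and 0.0404 on the deposited log2 values). Tdo2, which opens tryptophan breakdown, was at 158 ± 33.4 and 121 ± 9.40 FPKM (adjusted p = 0.261).

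Cd163, the macrophage receptor for haemoglobin and haptoglobin that glucocorticoid induces, stood at 1.73, 2.01 and 1.60 FPKM in controls and at 0.0991, 0.0520 and 0.0791 FPKM in cadmium. It was called without each library in turn (log2 fold change -1.37, SE 0.08, adjusted p = 0.00375). Log2(FPKM + 1) understates changes at such low levels, and in the authors' deposited table its log2 fold change was -4.68. Cd163 was the 1 gene called of 3 tested macrophage genes, and its fall was known from earlier results when the list was written. Mrc1 and Mertk, other macrophage receptors, were not called. Acute phase genes, which glucocorticoid enhances together with cytokines, went the other way. Of 9 tested, 5 were called higher and 0 lower, against 7.86% and 1.82% of all genes. With the block 1 was called higher, against 1.86% of all genes. Saa2 rose from 0.726 ± 0.0713 to 6.42 ± 2.48 FPKM (adjusted p = 0.0133), a gene whose close paralog Saa1 can share its reads. Fga and Fgg, fibrinogen chains, rose from 466 ± 3.31 to 849 ± 127 and from 413 ± 37.1 to 761 ± 109 FPKM (adjusted p = 0.0278 and 0.0277, and 0.0722 and 0.0703 with the block).

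**Figure D4:**
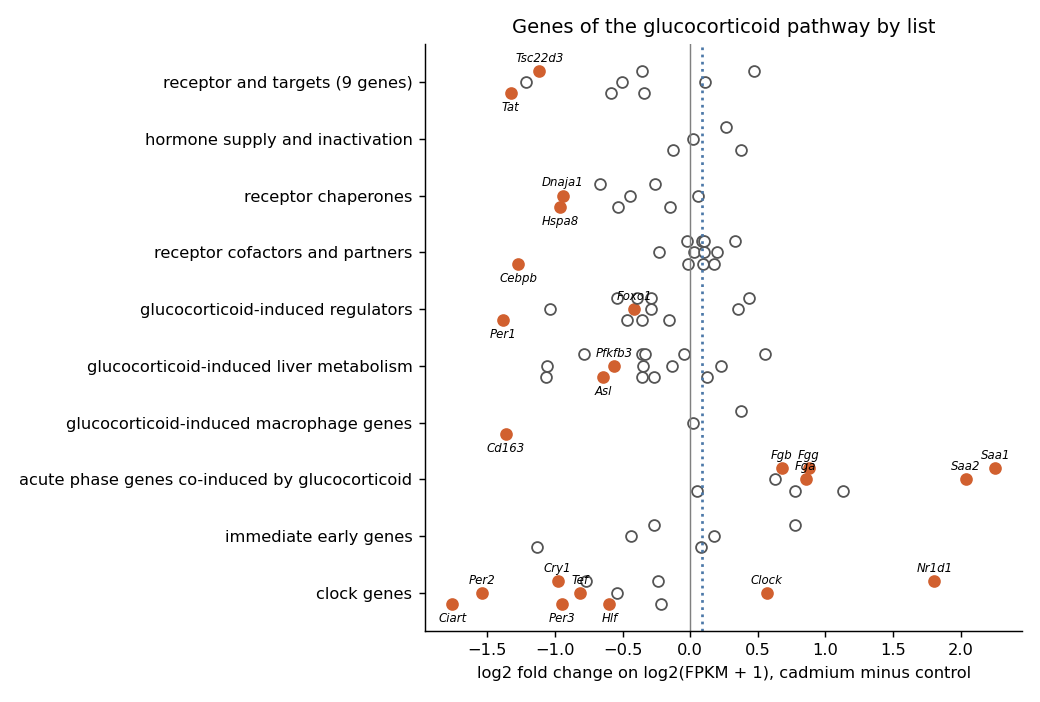
Log2 fold change (cadmium minus control on log2(FPKM + 1)) of every tested gene in the 9 receptor and target genes and in 9 pathway lists. Filled named points had an adjusted p under 0.05, and the dotted line is the median of all tested genes at 0.09. Named points of the target lists lie left of 0, and those of the acute phase list lie right of it.

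Other gene groups differed along with these genes. Of 12 tested clock genes 2 were called higher and 6 lower, against 7.86% and 1.82% of all genes. With the block 1 was called higher and 3 lower, against 1.86% and 0.646%. Ciart, Per3 and Per2, clock repressors, fell, and Nr1d1, the gene of REV-ERB alpha, rose, with means of 8.84 ± 3.24 and 32.1 ± 2.52 FPKM (adjusted p = 0.0114). The hour at which livers were taken is not given in the sources used here, and the part of the clock genes in the result was not tested. Of 6 tested immediate early genes 0 were called. Junb, the one with the smallest p, was at 7.58 ± 3.10 and 13.0 ± 1.21 FPKM (adjusted p = 0.135).

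Markers of other liver cells were higher in cadmium in part. The summed level of 7 stellate cell markers was 12.6 to 20.0 FPKM in controls and 30.0 to 33.6 FPKM in cadmium, and 5 of the 6 tested were called higher, against 7.86% of all genes, or 2 with the block, against 1.86%. That of 8 Kupffer cell markers was 36.8 to 64.1 and 72.1 to 84.8 FPKM. Of 7 tested 2 were called higher, against 7.86% of all genes, or 1 with the block, against 1.86%. On the deposited log2 values 1 was called higher, against 3.85% of all genes. Not all of these markers went that way: Timd4, below the filter and so not tested, stood at 0.582, 0.725 and 0.396 FPKM in controls and at 0.111, 0.0684 and 0.0943 FPKM in cadmium, and Vsig4 had a log2 fold change of -0.19 (adjusted p = 0.714). The sum for sinusoidal endothelial markers was 23.6 to 35.4 and 32.1 to 43.3 FPKM. Of 7 tested 1 was called higher, against 7.86% of all genes, and 0 with the block or on the deposited log2 values. Lymphocyte markers summed to 0.713 to 1.61 and 1.20 to 1.67 FPKM and none reached the filter. The part of these cells in the results on Tsc22d3, Dusp1, Zbtb16 and Cd163 was not tested, and in whole tissue fewer cells of a type cannot be told apart from less RNA per cell.

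The genes closest to Tat in their pattern over the 6 libraries were Mroh6, Dnajb1, Ces1b, Rrp12 and Pik3r1, with Pearson r of 0.997, 0.992, 0.992, 0.988 and 0.987 (Spearman's rho from 0.943 to 1). Those closest to Nr3c1 were Elovl1, Calu, Sept10, Sowahb and Dbi, with Pearson r of 0.987, 0.984, 0.982, 0.980 and 0.980 (rho from 0.943 to 1). These values describe likeness over 6 libraries that share 2 groups, and were the highest of all tested genes by construction.

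**Figure D5:**
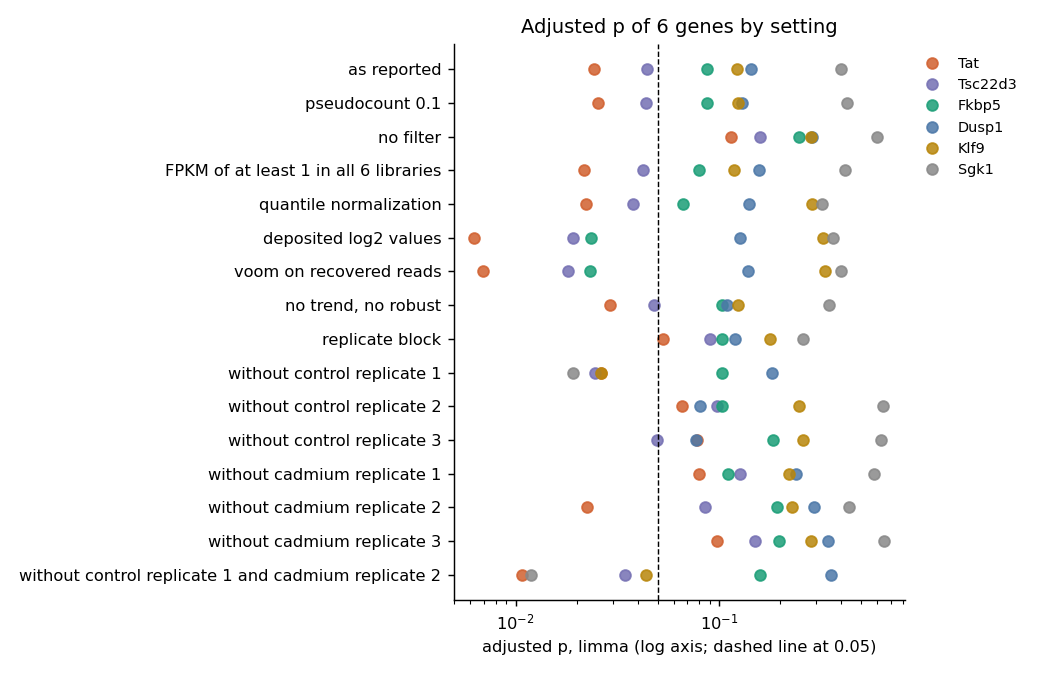
Adjusted p (limma, log axis) of 6 genes under the reported fit and 15 other settings, with the threshold of 0.05 dashed. Tat and Tsc22d3 lie left of the line in the reported fit and right of it with the batch block, and Fkbp5 lies left of it on the deposited log2 values and with voom.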

How the data were processed

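The 6 libraries are input RNA of liver, 3 control and 3 cadmium. The deposited FPKM table gives FPKM made by the authors for 55335 gene identifiers. The other deposited table has log2 values per library for 34352 genes beside group means, and the authors' log2 fold change, p-value and FDR. Log2 was undone, 1 was subtracted, and each library was divided by its smallest value above 0, taken as 1 read. This gave whole reads for 100% of values above 0 within 0.05 of a read. The submitters' processing notes name mm10, DESeq2, MACS2 2.1.1, STAR 2.7.1a, cutadapt and SAMtools 1.3.1, without saying what each did. For the read counter and annotation: not given in the sources used here.

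The comparison used log2(FPKM + 1), a scale that understates changes of low genes, and limma 3.58.1 (R 4.3.3; trended and robust eBayes, two-sided). It covered the 9908 genes that reached FPKM 1 in 3 or more libraries. P-values were adjusted by Benjamini-Hochberg over all of them. The fit was tested on simulated data: of genes changed by -1, -2, 1 and 2 on the log2 scale, 82%, 94%, 66% and 96% were recovered among 9908. The changed genes, 50 of each size, came only from genes with a control mean of log2(FPKM + 1) above 3. Fkbp5, Sgk1 and Zbtb16 lay below that level, so these rates do not cover them. The simulated noise was independent between genes, and few genes were changed. Alternatives were another pseudocount (0.1), other filters, quantile normalization, the deposited log2 values, voom on recovered reads, plain moderation, the block, and leaving out each library.

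Pairing comes from the labels, where the replicate number is also the batch. Deviations from group means correlated at -0.21, -0.23 and -0.02 between libraries of the same number. Gene spans are from GENCODE M21 on GRCm38, the same assembly as mm10. The genes and lists were chosen with earlier results of these data known. Named were the 9 genes, up to 4 called genes of each list with the smallest p or else the 1 gene with the smallest p, and Per1, Hsd11b1, Cd163, Pck1, Tdo2, Hsp90aa1 and Fkbp4. Some further genes were named outside this rule, as not called or by their direction.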

Additional observations from a re-analysis of the deposited data

How the results depend on the processing

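Of the 135 refits of single genes (9 genes, 15 other settings), 113 kept direction and side of the threshold, 12 ended a call, 6 made one and 4 changed sign. The sign changed for Nr3c1 on the deposited log2 values and with voom (-0.0621 and -0.0615), and for Zbtb16 without control replicate 1 (0.10) and without control replicate 1 and cadmium replicate 2 (0.30). The reported fit called 2 of the 9 genes, 21 genes of the pathway lists and 959 of all genes (779 higher, 180 lower). Without a filter on low values, which raised the number tested to every detected gene, these counts were 0, 1 and 37, and with the replicate block 0, 10 and 248. Leaving out 1 library gave 0 to 4, 3 to 24 and 101 to 781, and a log2 fold change of Zbtb16 from -0.79 to 0.10. Without control replicate 1 and cadmium replicate 2, chosen after seeing the data, 4 of the 9 were called. These are the lowest control and the highest cadmium library of Tat and Tsc22d3, so that fit gives their calls no support. Among the fits that left out 1 library the lowest counts of all genes (101) and of pathway genes (3) came without cadmium replicate 3, with 0 of the 9 called. Quantile normalization gave 347 higher and 298 lower, and the deposited log2 values 381 and 493. The cause of these moves was not tested. Sgk1 had the fewest reads, 470 in its lowest library, and 3 libraries per group limit all p-values.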
